A study of Homo sapiens with 4 samples.

Results

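Adhesion G protein-coupled receptors were examined in the established human myeloma line AMO1 as the genes whose symbol begins with ADGR in the authors' deposited table. There were 7 such genes among 1232, of which 6 are described: ADGRB2, ADGRB3, ADGRD1, ADGRE1, ADGRG1 and ADGRL2. All cells had been transduced with lentivirus carrying the PCDH vector. The control group (EV) carried that vector empty, and the other group (PHF19_OE) overexpressed PHF19, an accessory protein of the histone methyltransferase complex PRC2 from the Polycomb-like family. Each group comprised 2 libraries of sequenced RNA. The labels do not say that replicates were separate cultures, or that cells were cloned or pooled, and any p-value measures only the spread between these libraries.

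Adhesion receptors couple a long extracellular region to a seven-helix membrane domain. In many of them a conserved domain next to the membrane cuts the protein, and the stub left behind can act as a tethered agonist that signals through heterotrimeric G proteins, among them those that raise cyclic AMP. Members are used by leukocytes, neurons and stem cells to sense matrix and neighbouring cells.

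The libraries held 23835805 to 35258920 counted reads, of which the listed genes took 3.97% to 7.07%. PHF19 stood at 1842 and 4506 normalized counts in the EV libraries and at 9670 and 8777 in the PHF19_OE libraries, so that the groups did not overlap, although EV replicate 1 was 2.45-fold below EV replicate 2. PHF19 was 2.91-fold higher on average, 2.05-fold when EV replicate 1 was left out and 5.01-fold when EV replicate 2 was, and its adjusted p was 0.0897 in the authors' deposited table. The EV libraries were unlike each other in many genes: EV replicate 1 was over 2-fold above EV replicate 2 in 500 of the 1232 listed genes and over 2-fold below it in 167. Folds without each EV library are therefore given beside those of the receptors where they could be computed. Every gene in the table has an unadjusted p of at most 0.0499, so all 6 receptors differed by that measure from the outset, and nothing is said of the levels of genes outside it. Of 13 plasma cell markers 3 were listed, POU2AF1, CD38 and CD79A, each lower in PHF19_OE cells. The identity of the cells can thus be checked against these 3 alone, whose summed normalized counts were 15571 to 21950 in EV and 8389 to 8400 in PHF19_OE libraries. Most of that sum was POU2AF1 (adjusted p 0.178 in the authors' deposited table). CD79A stood at 211 and 65.5 in EV and at only 1.20 and 4.09 in PHF19_OE libraries (adjusted p 3.29e-05 in that table). CD38 stood at 3228 and 2138 against 901 and 660 (adjusted p 0.00359 in that table). Of 13 endothelial, epithelial and fibroblast markers 1, CDH1, was listed and fell, and of 7 erythroid markers 1, HBB, was listed and rose.

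Among the receptors, ADGRG1 rose and ADGRE1 fell in PHF19_OE cells: the authors' deposited table gives each an adjusted p under 0.05. ADGRB2, ADGRB3 and ADGRL2 were also higher and ADGRD1 lower, but these 4 missed that threshold. The 2 called receptors out of the 6 described stand beside 1.74% of the 16881 genes that the authors adjusted over and 23.8% of the listed genes, the closer background because listing already required a low p. By direction, 9.09% of listed genes were called higher and 14.7% lower, or 0.663% and 1.07% of the genes adjusted over. The groups did not overlap for any of the 6 receptors, as for 90.5% of listed genes. Higher genes made up 36.4% of the table and 4 of the 6 receptors, and lower genes 63.6% and 2. The call depends on the test. When the listed counts were tested by edgeR (quasi-likelihood) with the authors' scaling, none of the 4 receptors that passed its filter on low counts was called, although all 4 had an unadjusted p under 0.05; that test called 0.0% of the 1066 genes it fitted, with 522 at an unadjusted p under 0.05. DESeq2 with the same scaling called ADGRE1, beside 10.9% of 1232 listed genes. With a replicate block edgeR called 1 receptor, ADGRE1, beside 10.2% of genes. It called 3 receptors when EV replicate 1 was left out, beside 29.5% of genes, and 4 when EV replicate 2 was left out, beside 68.8%. Leaving out PHF19_OE replicate 1 or 2 gave no receptor, with 1 at an unadjusted p under 0.05 each time, beside 0.935% and 0.843% of genes.

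**Figure D1:**
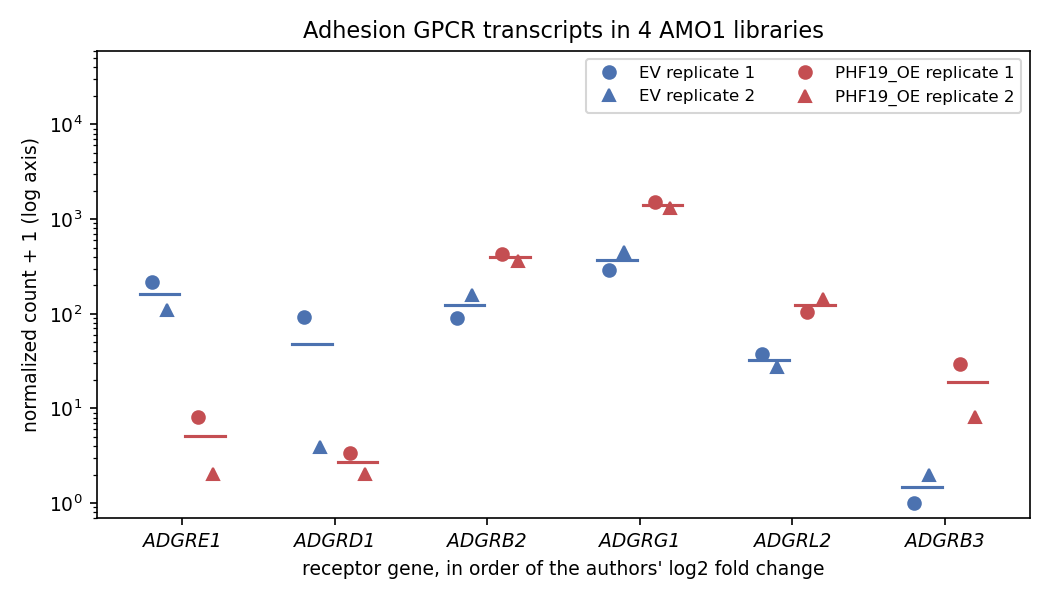
Normalized count plus 1 (log axis) of each receptor gene in each library; circles are replicate 1, triangles replicate 2 and short lines the group mean. No receptor's groups overlap, ADGRE1 and ADGRB3 show wide gaps between groups, and ADGRD1 is high in EV replicate 1 alone.

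ADGRG1, formerly GPR56, is a receptor of cytotoxic lymphocytes, blood stem cells and the developing cortex that binds collagen III. It lies on the plus strand of chromosome 16, at 57610652 to 57665580 of hg38. Its normalized count was 290 in EV replicate 1, 447 in EV replicate 2, 1532 in PHF19_OE replicate 1 and 1303 in PHF19_OE replicate 2. Both overexpressing libraries were above both controls, and the nearest libraries of the 2 groups were 2.92-fold apart, against 1.54-fold between the EV and 1.18-fold between the PHF19_OE replicates. The gap was thus wider than the spread within either group. The mean rose 3.85-fold, from 368 ± 111 to 1417 ± 162 (SD, n = 2 each), and by 3.17-fold without EV replicate 1 or 4.89-fold without EV replicate 2. In the authors' deposited table the log2 fold change of ADGRG1 was 1.94 and its adjusted p 0.00105. An antisense gene, AC018552.3, overlaps ADGRG1 in GENCODE 29, and since no source used here gives the use of strand in counting, its reads could not be told apart from those of ADGRG1.

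MMP15, a membrane-bound matrix metalloproteinase 359985 bases beyond ADGRG1, stood at 23.8 and 19.6 in EV and at 78.1 and 82.9 in PHF19_OE libraries (normalized counts; adjusted p 0.379 in the authors' deposited table).

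Few markers of cytotoxic lymphocytes, in which ADGRG1 is known, were listed, and those had low counts. The levels of the other markers are not known. Of 21 NK and cytotoxic T cell markers 3 were listed, and their summed normalized counts were 85.5 and 40.1 in the EV and 8.41 and 18.4 in the PHF19_OE libraries. CD3E, a CD3 chain of the T cell receptor complex, stood at 50.7 and 26.4 in EV and at 0 and 4.09 in PHF19_OE libraries, and TRAC was also lower. GZMH, a granzyme, had 0 counts in both EV libraries and 6.01 and 13.3 normalized counts in PHF19_OE libraries. None of the 3 passed 0.05. Their sum was lower where ADGRG1 was higher because CD3E and TRAC were lower, whereas GZMH was higher in the same libraries, all at low counts. All libraries are of the AMO1 line, and low counts of these genes do not show that lymphocytes were present. Any link between these markers and the ADGRG1 values was not tested. In bulk RNA, fewer cells expressing a gene and less RNA per cell cannot be told apart.

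ADGRE1 had the larger of the 2 called changes. It encodes EMR1, the human counterpart of the mouse macrophage antigen F4/80, known in human blood mainly from eosinophils, and lies on the plus strand of chromosome 19, at 6887566 to 6940459. Its normalized count was 218 in EV replicate 1 and 108 in EV replicate 2, against 7.21 in PHF19_OE replicate 1 and 1.02 in PHF19_OE replicate 2, from 275, 110, 6 and 1 reads. The overexpressing libraries were thus close to silent for ADGRE1, and the nearest libraries of the groups were 14.9-fold apart. The mean fell 39.5-fold, from 163 ± 78.0 to 4.12 ± 4.37 (SD, n = 2 each). This fold rests on 7 reads in the overexpressing group, and it was 26.1-fold without EV replicate 1, 52.9-fold without EV replicate 2, 159-fold without PHF19_OE replicate 1 and 22.6-fold without PHF19_OE replicate 2. In the authors' deposited table the log2 fold change of ADGRE1 was -5.35 and its adjusted p 7.77e-06, which placed it 61st by p among the listed genes.

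The listed myeloid markers were lower in the same libraries. Of 16 macrophage and granulocyte markers 2 were listed, with a summed normalized count of 642 and 210 in EV against 90.1 and 58.3 in PHF19_OE libraries. ITGAM, an integrin chain of myeloid and NK cells, stood at 94.3 and 15.6 in EV and had 0 counts in both overexpressing libraries. CCR3, the eotaxin receptor of eosinophils, stood at 547 and 195 in EV and at 90.1 and 58.3 in PHF19_OE libraries. Both fell, with adjusted p of 0.00377 for ITGAM and 0.0254 for CCR3 per the authors' deposited table. Their part in the ADGRE1 result was not tested.

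ADGRE1 was lower while its listed neighbours were higher. Of 25 coding genes within 500 kb of it, CD70 and TNFSF9 were listed, both ligands of the tumour necrosis factor family. CD70, 283462 bases away, rose 7.63-fold, from 358 ± 54.4 to 2735 ± 147 (SD, n = 2 each), with an adjusted p of 2.59e-11 in the authors' deposited table. TNFSF9 stood at 430 and 46.9 in EV and at 852 and 740 in PHF19_OE libraries and did not pass 0.05.

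ADGRB2 and ADGRB3 belong to the brain angiogenesis inhibitor receptors, which are expressed mainly by neurons and act at synapses. ADGRB2 lies on the minus strand of chromosome 1, at 31727117 to 31764893. It stood at 88.7 and 156 normalized counts in the EV libraries and at 425 and 362 in the PHF19_OE libraries. Both overexpressing values lay above both controls, 2.32-fold apart at the nearest, and the EV replicates were 1.76-fold apart. The mean was 3.21-fold higher, at 394 ± 44.6 against 123 ± 47.9 (SD, n = 2 each), or 2.52-fold when EV replicate 1 was left out and 4.44-fold when EV replicate 2 was. The adjusted p of ADGRB2 in the authors' deposited table was 0.0693, just above the threshold, with a log2 fold change of 1.69. Within 500 kb of ADGRB2, CCDC28B was lower (179 and 152 in EV, 52.9 and 45.0 in PHF19_OE libraries) and the noncoding LINC01226 higher (0 and 35.2 against 124 and 93.1), and neither passed.

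ADGRB3, which binds C1q-like proteins at synapses and lies on chromosome 6 at 68635367 to 69389511, was close to the limit of detection. It had 0 and 1 reads in the EV libraries and 24 and 7 in the PHF19_OE libraries, or 28.8 and 7.16 normalized counts in the latter. The ratio of counts was 39.2, with an exact 95% interval of 6.52 to 1596 that covers counting error only. Both overexpressing libraries were above both controls, but 24 of the 31 reads came from PHF19_OE replicate 1. The fold of mean normalized counts was 36.8, or 18.4 without EV replicate 1, 14.7 without PHF19_OE replicate 1 and 59.0 without PHF19_OE replicate 2, and without EV replicate 2 the EV group had no reads. The adjusted p of ADGRB3 in the authors' deposited table was 0.428. COL19A1, a collagen gene 477059 bases from ADGRB3, had 0 counts in both EV libraries and 37.3 and 47.1 normalized counts in PHF19_OE libraries. On summed counts, with 3 counts in the whole EV group as the floor, it was at least 32.4-fold higher (the exact 95% interval for counting error began at 25.7), with an adjusted p of 0.00298 in the authors' deposited table.

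ADGRL2 is a latrophilin, a receptor for teneurins and FLRT proteins on neighbouring cells, and lies on chromosome 1 at 81306160 to 81992436. It stood at 36.4 and 26.4 normalized counts in the EV libraries and at 103 and 141 in the PHF19_OE libraries. The gap between the groups was 2.84-fold and the replicates were 1.38-fold apart in EV and 1.37-fold in PHF19_OE cells. The EV pair was thus closer for ADGRL2 than for any other receptor here that had reads in both EV libraries. The mean was 3.89-fold higher, at 122 ± 26.8 against 31.4 ± 7.10 (SD, n = 2 each), or 4.63-fold when EV replicate 1 was left out and 3.36-fold when EV replicate 2 was. In the authors' deposited table the log2 fold change of ADGRL2 was 1.96, slightly above that of ADGRG1, but its adjusted p was 0.174. GENCODE 29 places 4 genes on the opposite strand within ADGRL2 and 1 within ADGRE1, and the limit on strand given for ADGRG1 holds for both.

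The listed neuronal markers did not follow these receptors. Of 10 neuronal markers 2 were listed, and both were lower in PHF19_OE cells. SYT1, a synaptic vesicle calcium sensor, stood at 747 and 304 in EV libraries and fell to 121 and 81.9 (adjusted p 0.00601 in the authors' deposited table). MAP2, a microtubule protein of dendrites, stood at 811 and 163 against 178 and 99.3 and did not pass. The summed count of the 2 was 1558 and 467 in EV against 299 and 181 in PHF19_OE libraries, the opposite direction to ADGRB2, ADGRB3 and ADGRL2.

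ADGRD1, formerly GPR133, a receptor that raises cyclic AMP, lies on chromosome 12 at 130953907 to 131141469 and rested on a single library. It had 115 reads in EV replicate 1, 3 in EV replicate 2, 2 in PHF19_OE replicate 1 and 1 in PHF19_OE replicate 2. The EV replicates differed by 31.1-fold in normalized counts, which were 91.1 and 2.93. The ratio of counts of EV to PHF19_OE cells was 31.1, with an exact 95% interval of 10.4 to 153. That interval covers counting error only and not the spread between the EV libraries. The fold of mean normalized counts was 27.4, or 1.71 without EV replicate 1, 53.2 without EV replicate 2, 45.9 without PHF19_OE replicate 1 and 19.6 without PHF19_OE replicate 2. ADGRD1 had an adjusted p of 0.174 and a deposited log2 fold change of -4.80 in the authors' deposited table. GENCODE 29 places 7 genes on the opposite strand within ADGRD1, so its few reads could not be assigned to a strand.

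Levels were compared per gene length as deposited FPKM, a count scaled to gene length and library total. In EV cells ADGRE1 (2.10 and 1.01 FPKM) and ADGRG1 (1.20 and 1.79 FPKM) led the 6, in an order that differed between the EV libraries, and ADGRB2 (0.410 and 0.700 FPKM) followed in both. In PHF19_OE cells the order was the same in both libraries: ADGRG1 at 6.18 and 5.22 FPKM, ADGRB2 at 1.91 and 1.62, ADGRL2 at 0.465 and 0.632, then ADGRB3, ADGRE1 and ADGRD1. ADGRE1 thus went from near the top of the order to near the bottom. Its place above ADGRD1 rests on 6 against 2 reads in PHF19_OE replicate 1 and on 1 read each in PHF19_OE replicate 2. In the latter library their order reflects gene length alone (3707 and 14718 bases). The summed FPKM of the 6 was 4.10 and 3.63 in EV and 8.79 and 7.52 in PHF19_OE libraries. ADGRG1 held 29.2% and 49.4% of it in EV and 70.3% and 69.4% in PHF19_OE libraries. ADGRE1 held 51.3% and 27.8% in EV and 0.773% and 0.127% in PHF19_OE libraries, and ADGRB2 9.98% and 19.3% against 21.8% and 21.5%. These shares are taken within a library and do not change with the scaling between libraries.

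**Figure D2:**
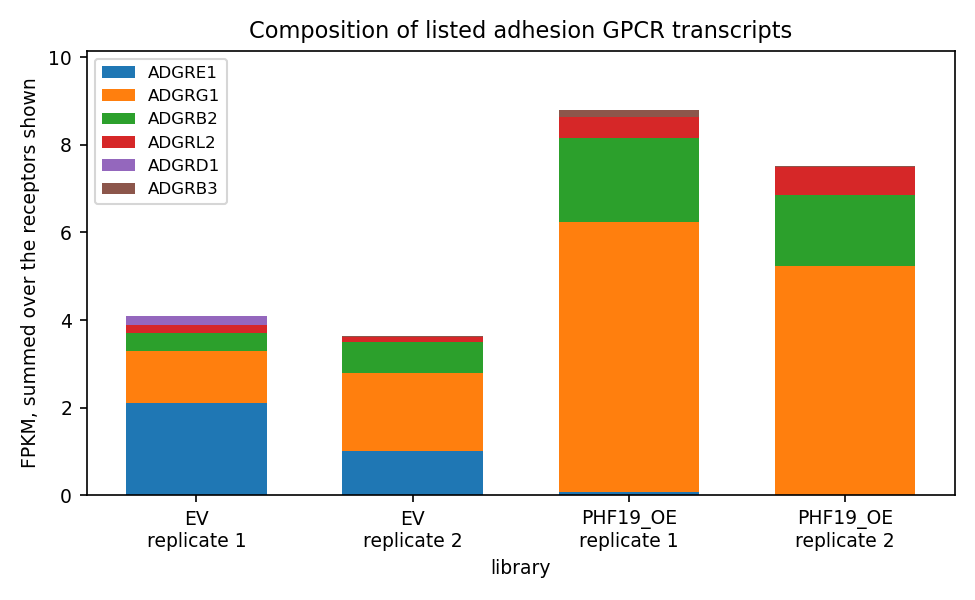
FPKM of the 6 receptor genes stacked in each library, with colours for genes and no error bars because each bar is 1 library. ADGRE1 and ADGRG1 fill most of both EV bars, and ADGRG1 is the largest segment of both PHF19_OE bars, whose totals of 8.79 and 7.52 lie above those of the EV libraries.

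The RefSeq starts of these genes differed in their content of the dinucleotide CG. Polycomb-like proteins are known to bind DNA rich in unmethylated CG, which is why the 250 bases before the start are shown for receptors on either side of the comparison. RefSeq (build GRCh38.p14) gave such windows for 5 of the 6 receptors. ADGRD1 had no entry. Capitals mark each CG, which reads the same on both strands and does not overlap itself, and each window is written 5′ to 3′ on the gene's strand.
ADGRB2 (chr1:31764341-31764590, minus strand): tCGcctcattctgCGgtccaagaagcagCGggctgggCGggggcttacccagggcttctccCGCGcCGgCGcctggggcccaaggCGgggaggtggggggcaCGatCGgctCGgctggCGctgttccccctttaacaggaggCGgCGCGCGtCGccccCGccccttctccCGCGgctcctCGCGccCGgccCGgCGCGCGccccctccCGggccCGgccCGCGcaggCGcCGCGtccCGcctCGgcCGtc
ADGRB3 (chr6:68635032-68635281, plus strand): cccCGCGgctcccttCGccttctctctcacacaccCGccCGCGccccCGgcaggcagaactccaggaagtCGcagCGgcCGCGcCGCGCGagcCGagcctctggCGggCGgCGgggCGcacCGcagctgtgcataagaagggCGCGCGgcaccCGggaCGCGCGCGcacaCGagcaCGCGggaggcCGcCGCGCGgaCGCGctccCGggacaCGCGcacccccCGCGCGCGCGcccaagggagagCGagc
ADGRG1 (chr16:57619488-57619737, plus strand): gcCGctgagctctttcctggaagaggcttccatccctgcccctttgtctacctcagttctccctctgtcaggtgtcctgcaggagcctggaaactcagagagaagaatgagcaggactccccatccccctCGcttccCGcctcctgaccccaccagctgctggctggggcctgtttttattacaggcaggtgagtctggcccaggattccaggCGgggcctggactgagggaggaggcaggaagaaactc
ADGRE1 (chr19:6887329-6887578, plus strand): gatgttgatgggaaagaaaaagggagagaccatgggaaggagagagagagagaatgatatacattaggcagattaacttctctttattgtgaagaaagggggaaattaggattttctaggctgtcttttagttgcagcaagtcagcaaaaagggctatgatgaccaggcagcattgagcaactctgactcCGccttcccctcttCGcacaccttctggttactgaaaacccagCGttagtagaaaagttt
The ADGRB2 window held 38 CG dinucleotides and the ADGRB3 window 46. Of 35116 RefSeq windows of this length, 3.28% held at least as many as ADGRB2 and 0.413% at least as many as ADGRB3, and 93.9% held at least 1. The ADGRG1 window held 4 and the ADGRE1 window 3, and 70.7% and 77.1% of windows held at least as many. The other 2 RefSeq starts of ADGRG1 had 6 each, and the 8 starts of ADGRL2 had 1 to 23. Receptors that were higher in PHF19_OE cells thus included windows rich and poor in CG. The windows of the called pair, ADGRG1 higher and ADGRE1 lower, were poor in it. However, the ADGRG1 and ADGRB2 windows lie inside these genes as positioned above. The outermost starts, at 57610652 for ADGRG1 and 31764893 for ADGRB2, had no window. The files do not say which start was used or whether PHF19 was bound there.

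Beyond the receptors described, the list of adhesion receptor genes gave 1 more listed gene with results here, the cadherin-like CELSR2. This planar cell polarity receptor stood at 242 and 324 in EV and at 494 and 553 in PHF19_OE libraries (adjusted p 0.677 in the authors' deposited table). Of 164 family members, ligands, G protein subunits, regulators and effectors other than the receptors described, 15 were listed. Of the 16881 genes adjusted over, 7.16% were listed. How many of the 164 were among those genes is not known, so the shares have unlike bases. Of the 15, 3 were higher (CELSR2, PRKAR1B and RAC3) and 12 lower, beside 36.4% and 63.6% of listed genes. By the adjusted p 2 of the 15 fell and none rose, beside 14.7% and 9.09% of listed genes, so that the share that fell was close to the background. Their median deposited log2 fold change was -2.44, against -1.33 over all listed genes and 1.82 over the 6 receptors.

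ADCY1, an adenylyl cyclase that makes cyclic AMP, stood at 17509 and 6243 in EV and at 1360 and 1599 in PHF19_OE libraries, a fall of 8.03-fold (4.22-fold when EV replicate 1 was left out, 11.8-fold when EV replicate 2 was; adjusted p 3.50e-06 in the authors' deposited table). GNG7, a G protein gamma subunit, stood at 9256 and 1354 in EV and at 1093 and 862 in PHF19_OE libraries (adjusted p 0.0373 in that table), and its 5.43-fold fall was 1.39-fold when EV replicate 1 was left out and 9.47-fold when EV replicate 2 was. ADCY1 was thus low against either EV library, and GNG7 mainly against the first. The other cyclic AMP genes of 26 on that list were the phosphodiesterases PDE3B, PDE4B and PDE4D, which break it down, and the protein kinase A subunit PRKAR1B. The phosphodiesterases were lower and PRKAR1B higher, at 234 and 393 in EV against 624 and 660 in PHF19_OE libraries, and none passed.

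RGS1, RGS2 and RGS3, which speed the shut-off of G alpha subunits, were the 3 listed of 26 receptor kinases, arrestins and RGS genes. RGS1 stood at 70628 and 4922 in EV and at 2950 and 1800 in PHF19_OE libraries and did not pass. GNAQ and GNAO1, both G alpha subunits, were lower without passing. RAC3, a small GTPase, stood at 207 and 536 in EV and at 890 and 903 in PHF19_OE libraries (adjusted p 0.417 in the authors' deposited table). Of 38 ligands and surface partners, PLXDC2 and TGM2 were listed. TGM2, a transglutaminase that binds ADGRG1, had 30.1 normalized counts in EV replicate 1 and 0 in the other 3 libraries.

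EV replicate 1 was over 2-fold above EV replicate 2 in 12 of these 15 genes, in 2 of the 6 receptors and in 500 of 1232 listed genes. With 1 added to normalized counts before taking log2, so that low genes show too small a change, the mean of the PHF19_OE libraries lay over 2-fold from both EV libraries for 5 of the 6 receptors. The exception was ADGRD1, which did so from EV replicate 1 only. The same held from both EV libraries for 2 of the 15 other genes, ADCY1 and RGS1, and for 741 of the 1232 listed genes. The part of EV replicate 1 in the results for the 15 genes was not tested further.

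**Figure D3:**
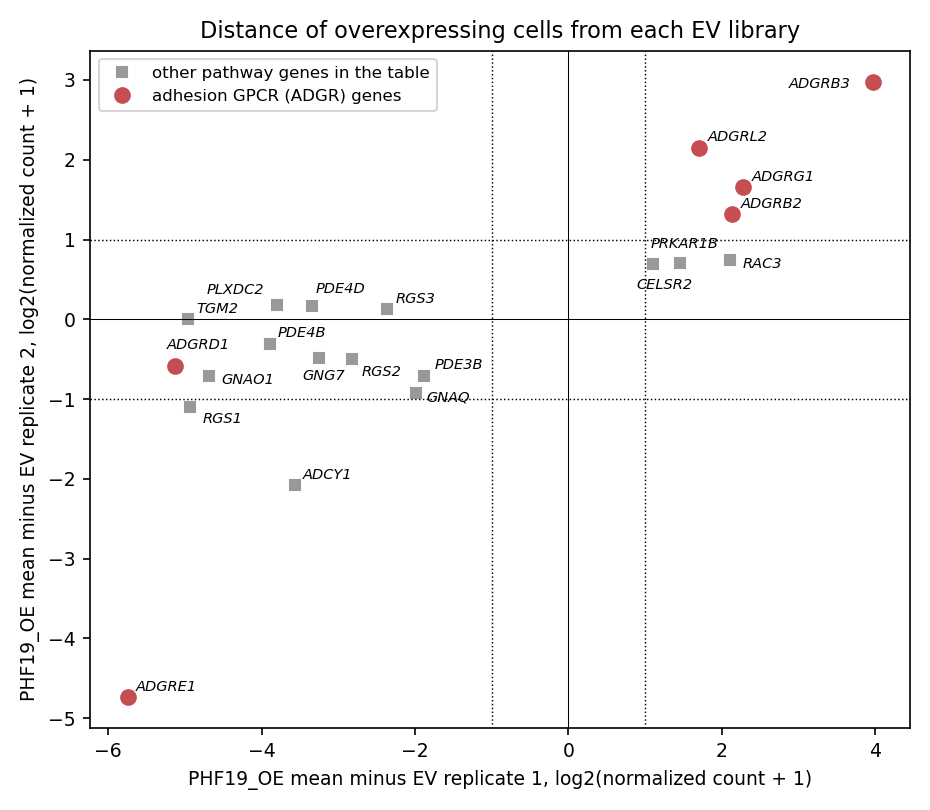
Mean of the PHF19_OE libraries minus EV replicate 1 (x axis) and minus EV replicate 2 (y axis), in log2 of the normalized count plus 1; red circles are the 6 receptors, grey squares the 15 other pathway genes and dotted lines a 2-fold distance. Receptors other than ADGRD1 lie beyond 2-fold on both axes, whereas 13 of the 15 grey squares do so on the x axis only.

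Listed coding genes with the most similar profiles over the 4 libraries were found by Euclidean distance between log2 profiles, each centred on its mean (956 or 957 genes with a mean normalized count of at least 10). BCAR1, an adaptor of integrin signalling, was nearest to ADGRG1 at a distance of 0.0903. It stood at 25.3 and 41.1 normalized counts in EV and at 143 and 128 in PHF19_OE libraries, and CENPV followed at 0.159. ADGRB2 was nearest to MGST1 (0.224) and COL24A1 (0.226), and ADGRL2 to PTPRJ (0.276) and MMP15 (0.296), the gene beyond ADGRG1. NSG2 and HOPX were nearest to ADGRD1, at 0.293 and 0.490, and both shared its high value in EV replicate 1 alone, with NSG2 at 737 there and 16.4 to 34.8 in the other libraries. ADGRB3 was nearest to DAAM2 (0.474) and ETV4 (0.539). The profile of ADGRE1 had no near match, the closest being LPIN3 at 0.840 and SERPINB6 at 0.898. Its PHF19_OE values rest on 6 and 1 reads and were 7.05-fold apart, a spread at low counts that enters these distances. These distances rest on 4 libraries and describe those only.

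**Figure D4:**
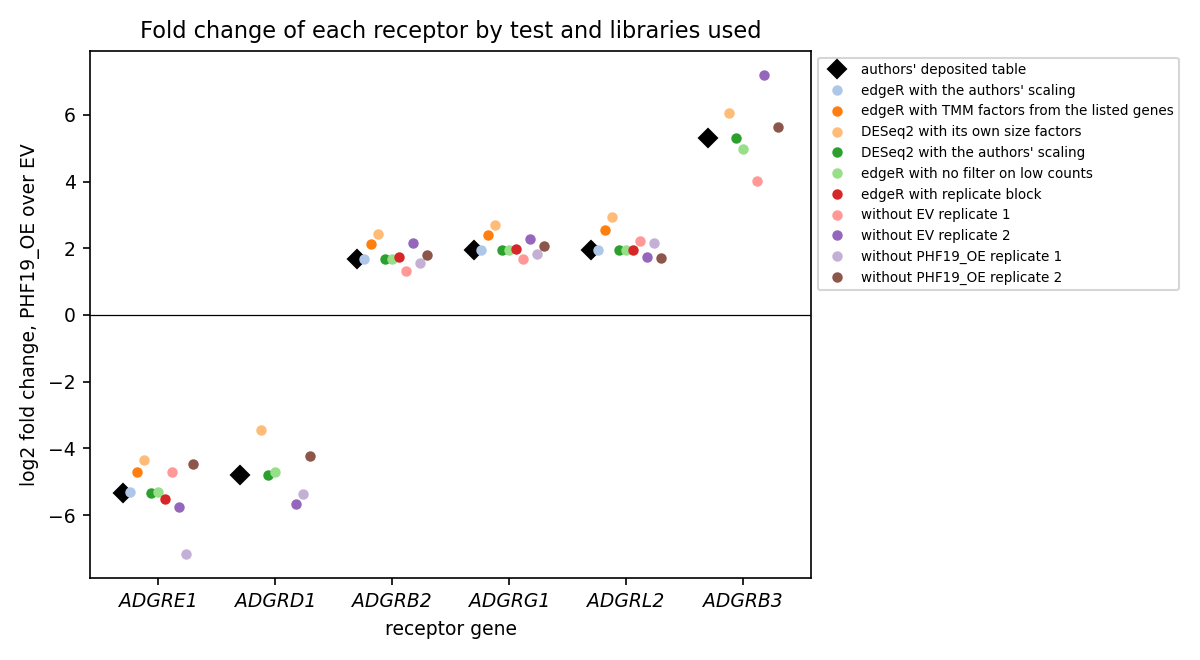
Log2 fold change of each receptor (PHF19_OE over EV) in the authors' deposited table (black diamonds) and under each other test, scaling or set of libraries (coloured circles). No receptor shown crosses 0 under any of them, but since no receptor's groups overlapped, leaving out a library could not have reversed a direction. ADGRB3 and ADGRD1 have no circle for edgeR fits of all libraries that used the filter on low counts, which they did not pass. For the same reason ADGRD1 has none without EV replicate 1 and ADGRB3 none without PHF19_OE replicate 1.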

How the data were processed

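RNA of 4 AMO1 libraries was sequenced after column extraction and SMARTER mRNA-Seq library preparation, per the labels' protocols. Per the submitters' processing notes, hg38 was the build; no source used here gives the aligner, counter, use of strand or test. Per the file headers, the authors deposited raw counts, normalized counts (a signal: count over 1 factor per library, 1.26 and 1.02 in EV, 0.832 and 0.977 in PHF19_OE), FPKM and, per gene, p-value, adjusted p-value and log2 fold change. Library totals were recovered from the deposited counts, FPKM and lengths. The highest p is 0.0499, so the genes are selected. Adjustment over 16881 genes returned 1208 adjusted values within 1e-06; the other 24 are 1. All 1232 gene positions equal GENCODE 29.

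The authors' adjusted p was the main result. Counts of all listed genes were tested again with edgeR 4.0.16 (quasi-likelihood, filterByExpr, recovered totals; R 4.3.3) and DESeq2 1.42.0, adjusted over 16881 genes and tested on simulated data; their spread comes from selected genes. Means and SDs use 2 normalized counts; floors take 3 counts over a group; intervals cover counting error only. Named genes are the receptors, listed genes of pathway and marker lists, listed genes within 500 kb, and the 2 nearest profiles per receptor. Of the 7 receptors, 1 is not reported here, nor is 1 pathway list. Members and lists were chosen with earlier results of these data known. Alternatives covered test, scaling, filter, replicate block, pseudocount and left-out libraries.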

Additional observations from a re-analysis of the deposited data

How the results depend on the processing

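All 64 values of the 6 receptors under the alternatives kept the direction of the authors' table. At the authors' scaling the groups did not overlap for any of the 6, so leaving out a library or adding a pseudocount could not reverse a direction. Those values are therefore no test of direction. The log2 fold change ran from 1.66 to 2.70 for ADGRG1, -7.16 to -4.20 for ADGRE1, 1.33 to 2.42 for ADGRB2, 1.71 to 2.92 for ADGRL2, 2.07 to 7.20 for ADGRB3 and -5.67 to -2.95 for ADGRD1. ADGRD1 without EV replicate 1 and ADGRB3 without PHF19_OE replicate 1 did not pass the filter and gave no value. The number of receptors called, 2 in the authors' table, depended on the test. EdgeR called 0 with the authors' scaling, 0 with TMM factors from the listed genes and 0 with no filter on low counts, with 4, 4 and 6 receptors at an unadjusted p under 0.05. Each of these fits called 0.0% of the genes it tested. DESeq2 with the authors' scaling called 1, ADGRE1, beside 10.9% of 1232 listed genes (50 higher and 84 lower). With its own size factors DESeq2 called 2, ADGRE1 and ADGRG1, beside 13.1% of listed genes (126 higher and 35 lower). Leaving out a single library gave 0 to 4 calls by edgeR: 0 without either PHF19_OE library (1 at an unadjusted p under 0.05 in each case), 3 without EV replicate 1 (ADGRE1, ADGRG1 and ADGRL2) and 4 without EV replicate 2 (ADGRB2, ADGRD1, ADGRE1 and ADGRG1). The lone library of a group is then assumed to vary like the other group. With a replicate block edgeR called 1, ADGRE1; the labels give the replicates only a number, and their deviations correlated at 0.248 over 1105 genes. TMM and DESeq2 factors from the listed genes raised the median log2 fold change of those genes by 0.59 and 0.96. ADGRB3 and ADGRD1 did not pass edgeR's filter with all libraries, and their low counts set the limit for both.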
